A study of Mus musculus with 24 samples.

Results

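The genes described here encode 10 proteins that move or read calcium in the mouse egg: the inositol trisphosphate (IP3) receptors Itpr1, Itpr2 and Itpr3, the store pump Atp2a2, the store-operated entry genes Stim1 and Orai1, the influx channels Trpm7 and Cacna1h, the plasma membrane pump Atp2b1 and the kinase subunit Camk2g. They were chosen by symbol from a table of 55401 gene rows, each symbol matched 1 row, and all 10 passed the filter on low counts. At fertilisation a sperm phospholipase makes IP3, which opens receptors on the endoplasmic reticulum and starts repeated calcium rises. Pumps then return calcium to the store or send it out of the cell, and entry through the plasma membrane refills what is lost. Calmodulin and its dependent kinase read these rises and release the egg from metaphase arrest. The values here are transcript levels of that machinery in cells labelled as oocytes, and no calcium signal was measured.

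Each RNA library was made from 5 mouse oocytes (the series text also calls them embryos), and 6 groups of 2 deposited libraries were read. In PSMPs & OE-Hdac3, exposure to PSMPs (the study's microplastics) was joined to overexpression of the histone deacetylase gene Hdac3. In vivo PSMPs and in vitro PSMPs were exposed in the animal and in culture. SAHA oocytes received suberoylanilide hydroxamic acid, an inhibitor of histone deacetylases, while con-in vitro and con were the control groups with and without the in vitro label. The labels give no strain, age, dose, maturation stage or route of overexpression. The control for SAHA and the way PSMPs & OE-Hdac3 oocytes were exposed are also not stated, so each of these groups was set against both candidates.

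Total counts ran from 6219784 to 35637689, and con-in vitro, at 6219784 and 6403283, was the shallowest group. Levels are CPM, the usual depth-scaled counts with the library size adjusted by TMM (trimmed mean of M values), and 3 counts stood for 0.0842 to 0.482 CPM of the unscaled totals. Both in vivo PSMPs libraries differed by less than counting noise and were counted as 1 sample, leaving 11 libraries, and that group was assumed to vary like the others. Hdac3 stood at 336 and 228 CPM in PSMPs & OE-Hdac3 and between 7.17 and 37.4 CPM elsewhere. All 15 oocyte markers were detected in every library except Figla in con-in vitro replicate 2, with sums of 11440 and 12140 CPM in con-in vitro and 21680 to 58150 CPM in the other libraries. The 20 cumulus and granulosa cell markers summed to between 35.8 and 166 CPM, and 14 or 15 of them, Fshr and Foxl2 included, were at 0 in each con-in vitro and con library, against 4 to 9 elsewhere. Fshr was detected in all other libraries. Foxl2 was also at 0 in PSMPs & OE-Hdac3 replicate 2, both in vitro PSMPs libraries and SAHA replicate 2. The 12 sperm, 9 zygotic genome activation and 10 blood cell markers summed to at most 144, 353 and 13.6 CPM. The con-in vitro and con libraries detected 11640 to 12843 genes, against 17722 to 20957 in the others, and the 100 most abundant genes took 52.2% and 53.3% of counts in con-in vitro, against 19.0% to 36.1% elsewhere. The part of these differences in the results, the genes at 0 in con-in vitro or con included, was not tested. Fewer cells and less RNA per cell cannot be told apart in pooled oocytes. The labels do not state whether replicate libraries had different animals behind them, so the tests see only library-to-library spread, which may be technical. Differences are log2 fold changes ± standard error, and adjusted p is a Benjamini-Hochberg value over 16736 genes from edgeR's quasi-likelihood F test, called below 0.05.

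The 2 con libraries differed from each other by more than 3-fold in 5 of the 10 genes, against 1 gene each in in vitro PSMPs and con-in vitro and 0 in SAHA and PSMPs & OE-Hdac3. Itpr3 and Stim1, at 0 in both con-in vitro libraries, gave no fold there. Over all genes, Pearson's r of log2(CPM + 1) between replicates was 0.909 in con and 0.933 in con-in vitro. It was 0.979 in in vitro PSMPs, 0.989 in SAHA and 0.991 in PSMPs & OE-Hdac3. Stim1 held 2 counts in con replicate 1 and 582 in con replicate 2, and Cacna1h, Itpr2, Orai1 and Trpm7 differed by 8.29, 7.40, 5.12 and 4.96 times. Atp2a2, Atp2b1, Itpr3, Camk2g and Itpr1 differed by 1.05, 1.01, 1.19, 1.37 and 1.82 times.

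**Figure D1:**
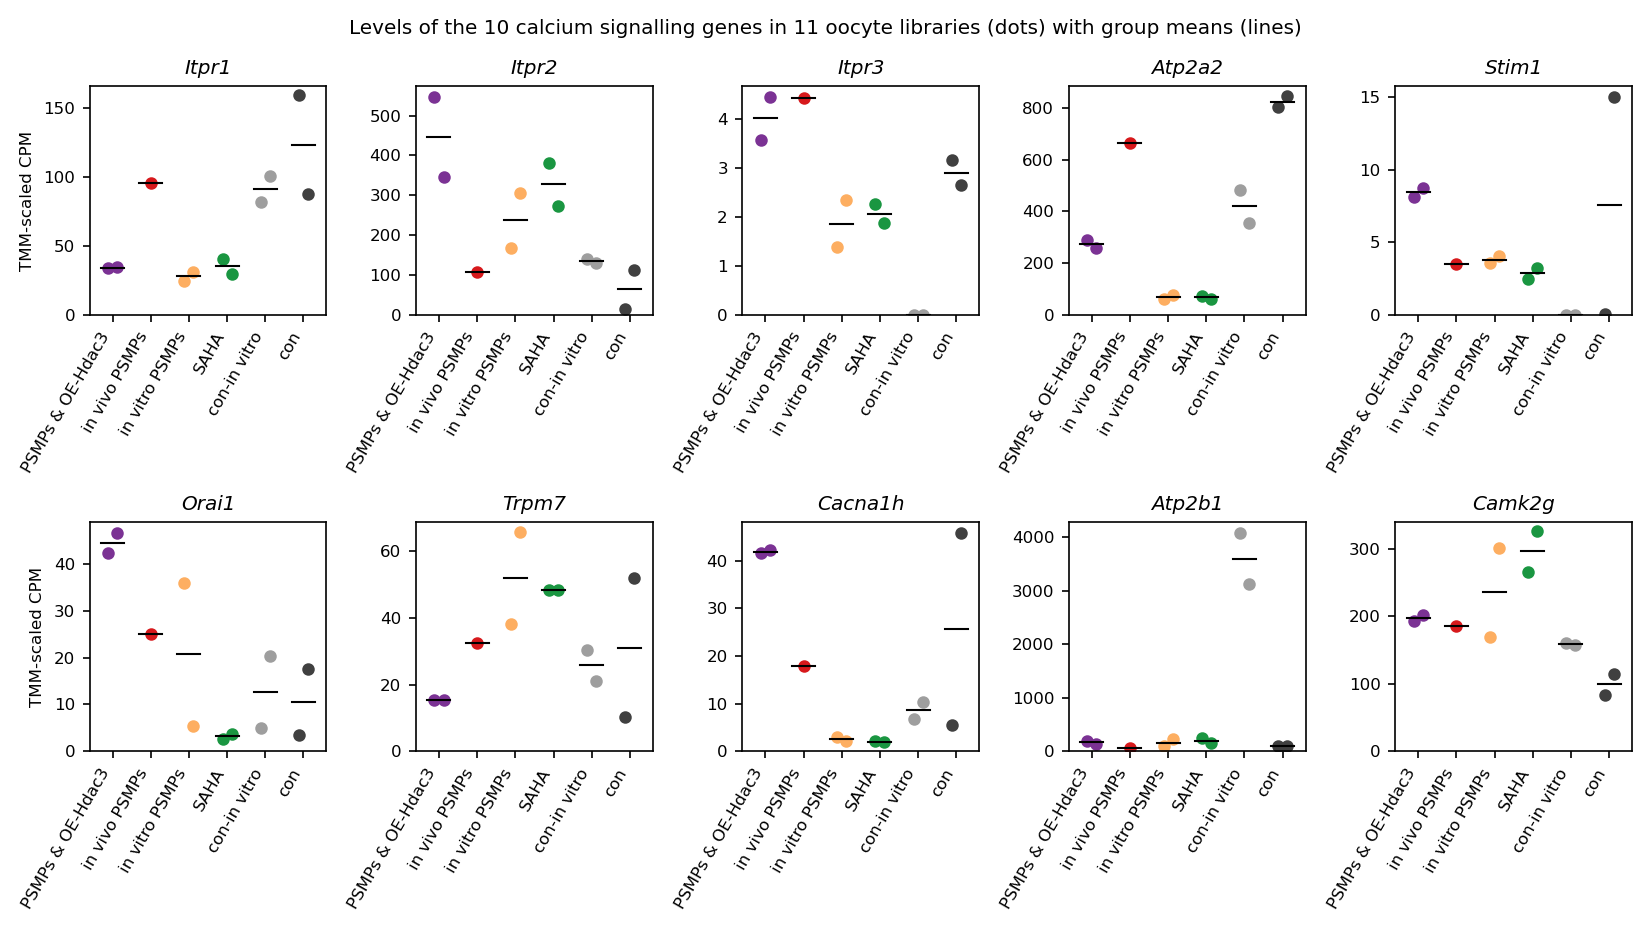
TMM-scaled CPM (vertical axis, from 0) of each of the 10 genes in the 11 libraries, grouped along the horizontal axis, with a dot per library and a line at the group mean. Atp2b1 reaches 4070 and 3114 CPM in con-in vitro and stays at or below 248 CPM elsewhere, and Atp2a2 is lowest in in vitro PSMPs and SAHA.

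Per kilobase of the deposited gene length, the order of the genes changed with the group. That length covers all annotated exons of a gene and can exceed the transcript present, so levels of different genes are compared only roughly. Atp2a2 led in PSMPs & OE-Hdac3 (45.0 ± 3.77 CPM per kilobase), in in vivo PSMPs (109.6) and in con (135.6 ± 4.98; SD, n = 2, or n = 1 for in vivo PSMPs here and below). Camk2g led in in vitro PSMPs (36.9 ± 14.6 CPM per kilobase) and SAHA (46.3 ± 6.73), and Atp2b1 led in con-in vitro (236 ± 44.4). Itpr3, Stim1 and, in 3 groups, Cacna1h stood at the low end, below 1 CPM per kilobase. Neighbours such as Camk2g and Itpr2 in PSMPs & OE-Hdac3 (30.8 ± 0.986 and 30.2 ± 9.63 CPM per kilobase), or Atp2a2 and Atp2b1 in in vitro PSMPs (11.3 ± 1.59 and 10.9 ± 6.21), did not differ beyond their spread.

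The release channels. The IP3 receptors form calcium channels of the endoplasmic reticulum, and Itpr1 is known as the main subtype of the mouse egg. Itpr1 (ENSMUSG00000030102.11) lies on mm10 chromosome 6, 108213096 to 108551109, on the plus strand. It stood at 33.8 and 34.65 CPM in PSMPs & OE-Hdac3, 95.4 in in vivo PSMPs, 24.6 and 31.3 in in vitro PSMPs, 40.7 and 29.7 in SAHA, 81.6 and 100.3 in con-in vitro, and 159 and 87.5 in con. By TMM-scaled CPM, the 6 libraries of PSMPs & OE-Hdac3, in vitro PSMPs and SAHA all lay below the 5 of in vivo PSMPs, con-in vitro and con. Scaled by library totals, PSMPs & OE-Hdac3 (52.9 and 54.2 CPM) and con-in vitro (44.2 and 57.3 CPM) overlapped. Against con-in vitro, Itpr1 fell in in vitro PSMPs (log2 -1.70 ± 0.44, adjusted p = 0.031, below in both libraries), and against con it fell in SAHA (log2 -1.81 ± 0.44, adjusted p = 0.019). SAHA against con-in vitro did not pass (log2 -1.37 ± 0.43, adjusted p = 0.0545), nor did PSMPs & OE-Hdac3 against in vitro PSMPs (log2 0.29 ± 0.43, adjusted p = 0.76), PSMPs & OE-Hdac3 against in vivo PSMPs (log2 -1.48 ± 0.50, adjusted p = 0.25) or con-in vitro against con (log2 -0.44 ± 0.43, adjusted p = 0.54). Under 4 of the 20 alternatives run, SAHA against con-in vitro did pass. Con-in vitro against con passed under 1 of them, library totals, where con-in vitro was lower (log2 -1.27, adjusted p = 0.0445). The in vitro PSMPs call rested on the scaling, with log2 -0.73 and adjusted p = 0.20 when counts were scaled by library totals. It was also lost without con-in vitro replicate 2 or without any single library of in vitro PSMPs, SAHA or PSMPs & OE-Hdac3 (adjusted p from 0.0637 to 0.18), and the SAHA call was lost without any single library of SAHA or PSMPs & OE-Hdac3 (adjusted p from 0.0507 to 0.12). With no filter the in vitro PSMPs call missed the threshold (adjusted p = 0.054), and fitted to only the compared groups both did (adjusted p = 0.07 for in vitro PSMPs and 0.075 for SAHA).

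Itpr2 (ENSMUSG00000030287.15), on mm10 chromosome 6, 146108299 to 146502223, minus strand, ran the other way. It stood at 547.5 and 346 CPM in PSMPs & OE-Hdac3, 108 in in vivo PSMPs, 169 and 307 in in vitro PSMPs, 382 and 273 in SAHA, 141 and 129 in con-in vitro, and 15.2 and 112 in con. The libraries of PSMPs & OE-Hdac3, in vitro PSMPs and SAHA all lay above those of the other groups. No comparison called it. The difference was log2 0.82 ± 0.75 (adjusted p = 0.47) for in vitro PSMPs and 1.28 ± 0.76 (adjusted p = 0.25) for SAHA against con-in vitro, and 2.36 ± 0.78 (adjusted p = 0.052) for SAHA against con. Of the 20 alternatives run, Itpr2 in SAHA passed under 3 against con-in vitro and under 5 against con.

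Itpr3 (ENSMUSG00000042644.9), on mm10 chromosome 17, 27057304 to 27122223, plus strand, was rare. It held 55 and 49 counts in PSMPs & OE-Hdac3 (3.58 and 4.46 CPM), 172 in in vivo PSMPs (4.43 CPM), 17 and 29 in in vitro PSMPs (1.38 and 2.34 CPM), 40 and 33 in SAHA (2.26 and 1.88 CPM), 0 and 0 in con-in vitro, and 91 and 103 in con (3.16 and 2.65 CPM). In con-in vitro, where it was not detected, 3 counts over the group would be 0.427 CPM. Folds against a group at 0, here and below, set the mean of the other group against 3 counts over it. A single library can lie closer than that. Itpr3 was at least 4.36-fold higher in in vitro PSMPs against con-in vitro (adjusted p = 0.041), at least 4.85-fold higher in SAHA than in con-in vitro (adjusted p = 0.033), and con-in vitro lay at least 6.81-fold below con (adjusted p = 0.021). The call for in vitro PSMPs was lost without any single library of in vitro PSMPs, SAHA, PSMPs & OE-Hdac3 or con-in vitro (adjusted p from 0.0584 to 0.16). That for SAHA was lost without the same libraries except con-in vitro replicate 1 (adjusted p from 0.0603 to 0.13), and that between the controls without any single library of in vitro PSMPs, SAHA or PSMPs & OE-Hdac3 (adjusted p from 0.0528 to 0.057). Itpr3 also missed the threshold with no filter in in vitro PSMPs (adjusted p = 0.11) and SAHA (adjusted p = 0.086), and with only the compared groups between the controls (adjusted p = 0.19). Of its exon bases, 2.59% are shared with Mir7677 and the antisense gene Itpr3os, and whether the counting used strand is not given in the sources used here.

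The make-up of the receptor genes differed between libraries. Itpr1 gave 4.70% and 7.34% of the summed receptor CPM per kilobase in PSMPs & OE-Hdac3, 40.1% in in vivo PSMPs, 10.4% and 7.52% in in vitro PSMPs, 7.86% and 8.01% in SAHA, 31.9% and 38.5% in con-in vitro, and 86.3% and 37.7% in con. Itpr2 gave 88.4% to 94.3% in PSMPs & OE-Hdac3, in vitro PSMPs and SAHA, 56.2% in in vivo PSMPs, 68.1% and 61.5% in con-in vitro, and 10.2% and 59.9% in con. The share of Itpr1 was thus at or below 10.4% in every PSMPs & OE-Hdac3, in vitro PSMPs and SAHA library and at or above 31.9% in every other library. These shares are within a library and do not depend on its scaling, but they do depend on the gene lengths used.

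The stretches before the start sites of Itpr2 and Itpr3 are shown because these receptor genes have a RefSeq (GRCm38.p6) start site that falls on the end of the gene in the count table, while Itpr1 has no entry in the promoter table used. Each covers 150 bases up to the start site, 5′ to 3′ on the strand of the gene, as chr6:146502224-146502373 (minus strand) for Itpr2 and chr17:27057154-27057303 (plus strand) for Itpr3. Capitals mark the GC box GGGCGG, the CCAAT box CCAAT and the E box CACGTG on either strand, which do not overlap here.
Itpr2: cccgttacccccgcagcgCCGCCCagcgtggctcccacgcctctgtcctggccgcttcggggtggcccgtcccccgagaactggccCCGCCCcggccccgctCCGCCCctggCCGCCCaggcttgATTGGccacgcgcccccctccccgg
Itpr3: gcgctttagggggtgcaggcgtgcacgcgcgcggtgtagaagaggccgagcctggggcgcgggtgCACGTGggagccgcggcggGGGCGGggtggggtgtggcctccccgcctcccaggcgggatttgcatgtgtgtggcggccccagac
The Itpr2 stretch holds 4 GC boxes and 1 CCAAT box, and the Itpr3 stretch 1 GC box and 1 E box. Of all 32851 windows of this length in the table, 28.6% hold a GC box, 24.5% a CCAAT box and 4.30% an E box. G and C make up 80.0% of the Itpr2 stretch and 75.3% of the Itpr3 stretch, against a median of 54.0% over all windows. These shares of windows do not allow for that difference. Neither stretch holds TATAAA, which 7.57% of windows hold. A match is a run of letters and was not tested as a site.

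The store pump and the entry that refills it. Atp2a2 (ENSMUSG00000029467.15, mm10 chromosome 5, 122453513 to 122502225, minus strand) encodes SERCA2, the pump that returns calcium to the endoplasmic reticulum. It stood at 290 and 258 CPM in PSMPs & OE-Hdac3, 666 in in vivo PSMPs, 61.6 and 75.3 in in vitro PSMPs, 72.4 and 62.6 in SAHA, 483 and 356 in con-in vitro, and 803 and 846 in con. The 4 libraries of in vitro PSMPs and SAHA were the lowest, at or below 75.3 CPM, and no other library was below 258 CPM. Atp2a2 was lower in in vitro PSMPs (log2 -2.62 ± 0.31, adjusted p = 0.00082) and in SAHA (log2 -2.64 ± 0.31, adjusted p = 0.00069) than in con-in vitro, and SAHA also lay below con (log2 -3.61 ± 0.33, adjusted p = 0.0017). These 3 calls held under each of the 20 alternatives run, with log2 from -1.63 to -3.76, though the first 2 share the con-in vitro libraries and the last 2 the SAHA libraries. Atp2a2 was also the only one of the 10 called in PSMPs & OE-Hdac3 against in vitro PSMPs, where it was higher (log2 2.00 ± 0.31, adjusted p = 0.013, higher in both libraries) and where 1.85% of all genes were called higher. That call was lost without any single library of either group (log2 from 1.84 to 2.15, adjusted p from 0.069 to 0.17). PSMPs & OE-Hdac3 against in vivo PSMPs did not pass (log2 -1.28 ± 0.35, adjusted p = 0.20), nor did in vivo PSMPs against con (log2 -0.31 ± 0.37, adjusted p = 0.68, and 0.02 when scaled by library totals). Con-in vitro was below con (log2 -0.98 ± 0.30, adjusted p = 0.041). This last call was lost without con-in vitro replicate 2, con replicate 1 or any single library of in vitro PSMPs or SAHA (adjusted p from 0.0583 to 0.14). It was also lost with DESeq2's size factors (adjusted p = 0.065), with no filter (adjusted p = 0.067) and with only the compared groups (adjusted p = 0.15).

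Stim1 (ENSMUSG00000030987.5, mm10 chromosome 7, 102267806 to 102437319, plus strand) encodes the sensor that reports an empty store. It held 125 and 96 counts in PSMPs & OE-Hdac3 (8.13 and 8.73 CPM), 136 in in vivo PSMPs (3.51 CPM), 44 and 50 in in vitro PSMPs (3.57 and 4.04 CPM), 44 and 57 in SAHA (2.49 and 3.24 CPM), 0 and 0 in con-in vitro, and 2 and 582 in con (0.0695 and 15.0 CPM). Stim1 was thus missing from both con-in vitro libraries and close to missing from con replicate 1. Against con-in vitro it was at least 8.91-fold higher in in vitro PSMPs and at least 6.71-fold higher in SAHA by the floor of 3 counts over the group, but neither passed the test (adjusted p = 0.12 in both). Each passed under 4 of the 20 alternatives run.

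Orai1 (ENSMUSG00000049686.14, mm10 chromosome 5, 123015074 to 123030456, plus strand) encodes the channel that Stim1 opens. It stood at 42.3 and 46.6 CPM in PSMPs & OE-Hdac3, 25.1 in in vivo PSMPs, 35.9 and 5.41 in in vitro PSMPs, 2.66 and 3.75 in SAHA, 5.04 and 20.2 in con-in vitro, and 3.44 and 17.6 in con. The replicates of in vitro PSMPs, con-in vitro and con overlapped one another, and no comparison called Orai1. In PSMPs & OE-Hdac3 it was above every other library, yet the difference to in vitro PSMPs was log2 1.10 ± 1.09 (adjusted p = 0.64).

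The influx channels. Trpm7 and Cacna1h, which encodes the T-type channel Cav3.2, are known in mouse eggs as routes by which calcium enters. Cacna1h (ENSMUSG00000024112.16, mm10 chromosome 17, 25374285 to 25433783, minus strand) stood at 41.6 and 42.2 CPM in PSMPs & OE-Hdac3, 17.9 in in vivo PSMPs, 3.00 and 2.10 in in vitro PSMPs, 2.09 and 2.05 in SAHA, 6.83 and 10.4 in con-in vitro, and 5.52 and 45.8 in con. The 4 libraries of in vitro PSMPs and SAHA were again the lowest. SAHA lay below con (log2 -3.63 ± 1.02, adjusted p = 0.03). The con replicates set the size of that value, which was log2 -4.46 (adjusted p = 0.002) without con replicate 1 and -1.60 (adjusted p = 0.079) without con replicate 2, and the call was also lost without any single library of SAHA, in vitro PSMPs or PSMPs & OE-Hdac3 (adjusted p from 0.06 to 0.16). Fitted to only SAHA and con, it also missed the threshold (adjusted p = 0.13). PSMPs & OE-Hdac3 lay above in vitro PSMPs by log2 4.03 ± 1.04, 41.9 ± 0.437 against 2.55 ± 0.636 CPM (SD, n = 2 each), and missed the threshold (adjusted p = 0.062). Of the 20 alternatives run, 6 called that difference. Among them were DESeq2's Wald test (adjusted p = 9.03e-05) and edgeR without con replicate 1 or con replicate 2.

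Trpm7 (ENSMUSG00000027365.14, mm10 chromosome 2, 126791565 to 126876230, minus strand) stood at 15.6 and 15.5 CPM in PSMPs & OE-Hdac3, 32.5 in in vivo PSMPs, 38.3 and 65.9 in in vitro PSMPs, 48.55 and 48.45 in SAHA, 30.6 and 21.0 in con-in vitro, and 10.5 and 51.9 in con. No comparison called it. By TMM-scaled CPM, Trpm7 was the influx gene with its lowest group mean in PSMPs & OE-Hdac3, where Cacna1h and Orai1 had their highest. Its difference to in vitro PSMPs there was log2 -1.75 ± 0.73 (adjusted p = 0.23), which passed under 3 of the 20 alternatives run. Scaled by library totals, Trpm7 was lower in con-in vitro (16.56 and 12.03 CPM) than in PSMPs & OE-Hdac3 (24.37 and 24.17 CPM).

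The pump that sends calcium out. Atp2b1 (ENSMUSG00000019943.10, mm10 chromosome 10, 98914406 to 99026143, plus strand) encodes PMCA1, a calcium ATPase of the plasma membrane. It stood at 198 and 141 CPM in PSMPs & OE-Hdac3, 55.2 in in vivo PSMPs, 98.9 and 233 in in vitro PSMPs, 248 and 156 in SAHA, 4070 and 3114 in con-in vitro, and 107.6 and 108.6 in con. The con-in vitro libraries stood apart from all others, and con lay close to the exposed and treated libraries. Atp2b1 was lower than in con-in vitro in in vitro PSMPs (log2 -4.44 ± 0.50, adjusted p = 0.00065) and in SAHA (log2 -4.15 ± 0.49, adjusted p = 0.00073), and higher in con-in vitro than in con (log2 5.05 ± 0.52, adjusted p = 0.00036). All 3 share the con-in vitro libraries and all held under each of the 20 alternatives. The first ran from log2 -3.51 with library totals to -5.17 without in vitro PSMPs replicate 2. Against con, SAHA did not pass (log2 0.90 ± 0.44, adjusted p = 0.16), nor did in vivo PSMPs (log2 -0.97 ± 0.56, adjusted p = 0.32). PSMPs & OE-Hdac3 lay at log2 0.03 ± 0.43 from in vitro PSMPs (adjusted p = 0.98).

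The proportion of the pumps differed between groups. The ratio of Atp2a2 to Atp2b1, per kilobase, was 3.67 and 4.58 in PSMPs & OE-Hdac3, 30.2 in in vivo PSMPs, 1.56 and 0.81 in in vitro PSMPs, 0.73 and 1.00 in SAHA, 0.297 and 0.286 in con-in vitro, and 18.7 and 19.5 in con. The replicates of each group lay closer to each other than to any library of another group, except that in vitro PSMPs and SAHA overlapped.

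**Figure D2:**
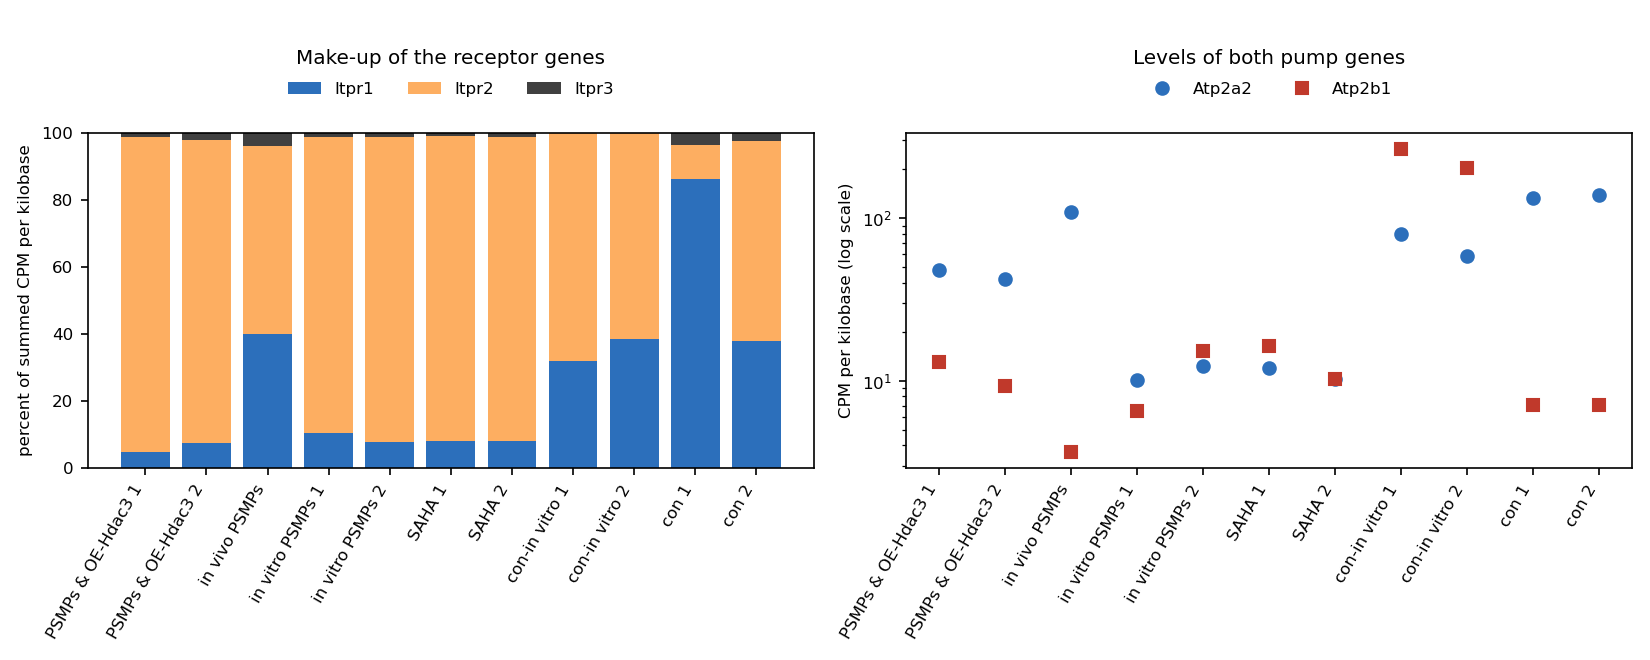
Left, the share in percent of Itpr1, Itpr2 and Itpr3 in the summed receptor CPM per kilobase of each of the 11 libraries (bars stacked to 100). Right, CPM per kilobase of Atp2a2 (circles) and Atp2b1 (squares) on a log axis: Atp2b1 lies above Atp2a2 in both con-in vitro libraries, near it in in vitro PSMPs and SAHA, and below it in PSMPs & OE-Hdac3, in vivo PSMPs and con.

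The kinase that reads the signal. Camk2g (ENSMUSG00000021820.18, mm10 chromosome 14, 20734875 to 20794088, minus strand) encodes the gamma subunit of calmodulin-dependent kinase II, the form that mouse eggs need for activation. It stood at 193 and 202 CPM in PSMPs & OE-Hdac3, 186 in in vivo PSMPs, 170 and 302 in in vitro PSMPs, 266 and 327 in SAHA, 161 and 157 in con-in vitro, and 84.3 and 115 in con. By TMM-scaled CPM, the con libraries were the lowest of the 11 and con-in vitro the next. Scaled by library totals, con (78.94 and 125.6 CPM) and con-in vitro (87.3 and 89.95 CPM) overlapped. Camk2g was higher in SAHA when set against con (log2 1.57 ± 0.36, adjusted p = 0.017), a call lost without any single library of SAHA or PSMPs & OE-Hdac3 (log2 from 1.42 to 1.72, adjusted p from 0.0507 to 0.089) and with only the compared groups (adjusted p = 0.052). Against con-in vitro the differences were log2 0.57 ± 0.36 for in vitro PSMPs (adjusted p = 0.29) and 0.90 ± 0.36 for SAHA (adjusted p = 0.11), and both passed when scaled by library totals (log2 1.52, adjusted p = 0.012, and log2 1.61, adjusted p = 0.0092).

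**Figure D3:**
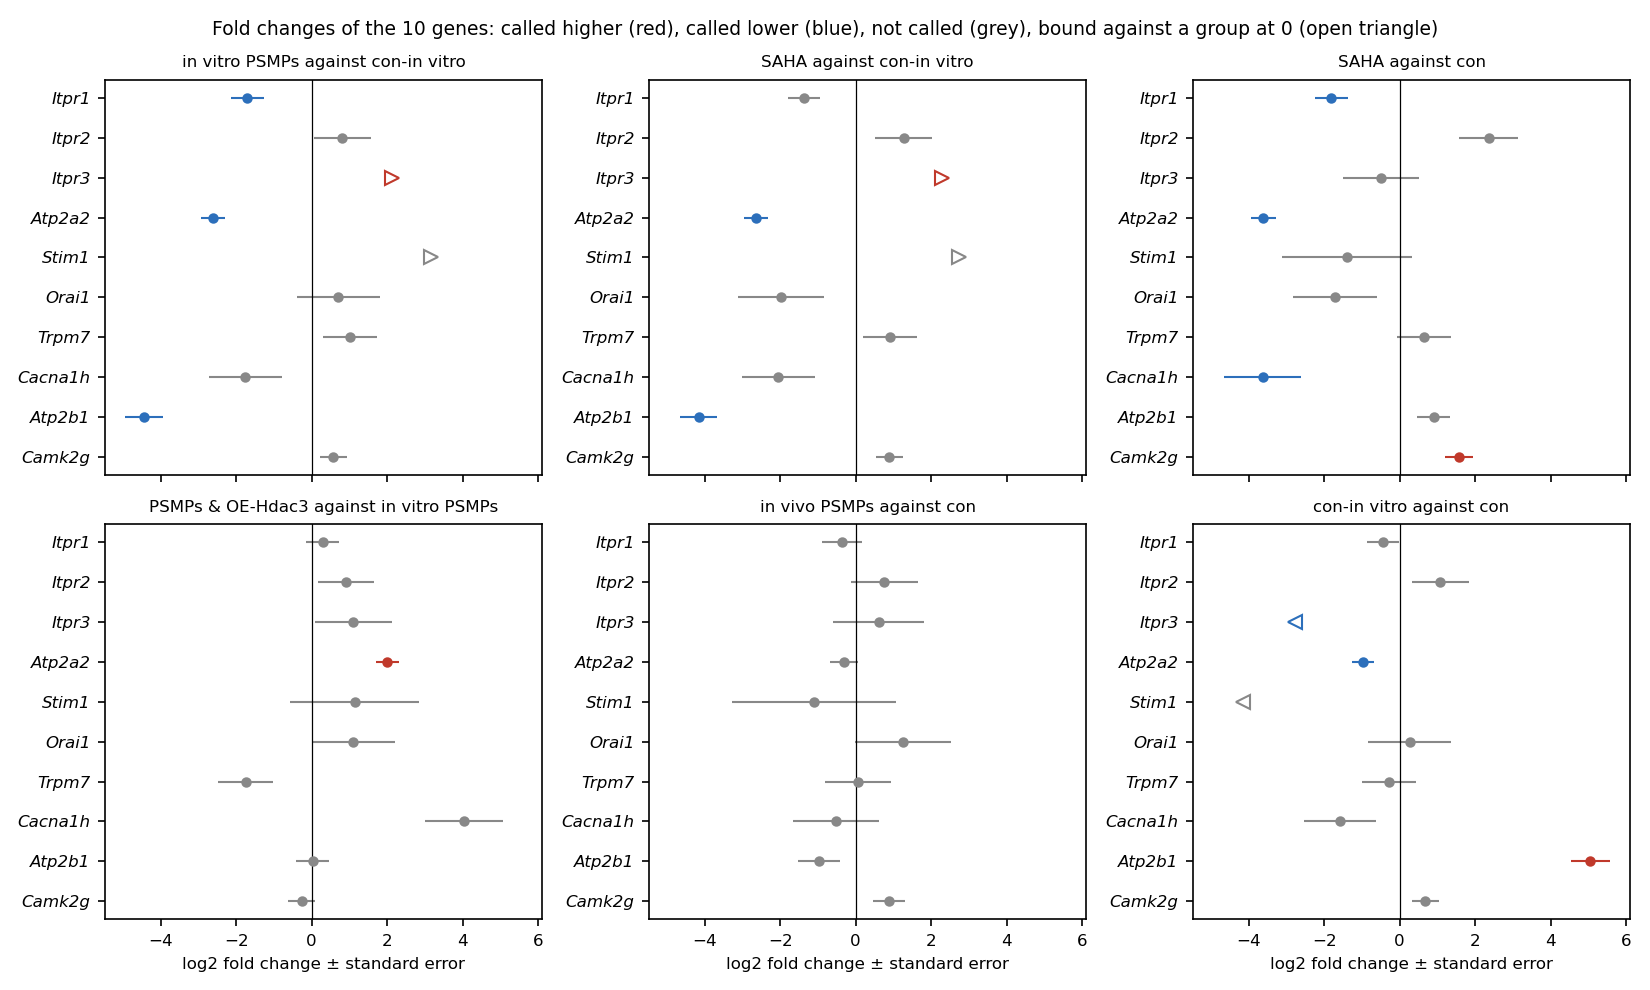
Log2 fold change ± standard error (horizontal axis) of the 10 genes in 6 comparisons, in red where called higher, blue where called lower and grey where not called, with an open triangle at the bound where a group held 0 counts. Atp2a2 and Atp2b1 are the genes called lower in both comparisons with con-in vitro, at log2 -2.62 and -4.44 in in vitro PSMPs and -2.64 and -4.15 in SAHA.

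By comparison, the calls among the 10 genes were few in each. In in vivo PSMPs against con, 0 of 10 were called, 0 had an unadjusted p under 0.05 and DESeq2 called 0, while edgeR called 4.59% of all genes higher and 0.287% lower. The fitted values of Itpr2 and Stim1 turned on the con libraries: without con replicate 1 they were log2 -0.05 and -2.09, and without con replicate 2 they were 2.82 and 5.51 and passed (adjusted p = 0.011 and 0.02). In in vitro PSMPs against con-in vitro, 1 was higher (Itpr3) and 3 lower (Itpr1, Atp2a2, Atp2b1), against 8.57% of all genes higher and 6.78% lower. With library totals the split of all genes was 3473 higher and 758 lower in place of 1435 and 1135, and that of the 10 was 2 and 2. In SAHA against con-in vitro, 1 was higher (Itpr3) and 2 lower (Atp2a2, Atp2b1), against 11.7% and 8.14%, and library totals gave 3222 genes higher and 922 lower in place of 1950 and 1363. In SAHA against con, 1 was higher (Camk2g) and 3 lower (Itpr1, Cacna1h, Atp2a2), against 20.2% and 6.75%. In PSMPs & OE-Hdac3 against in vitro PSMPs, 1 was higher (Atp2a2) and 0 lower, against 1.85% and 2.98%, and library totals gave 548 genes higher and 306 lower in place of 309 and 499. In PSMPs & OE-Hdac3 against in vivo PSMPs, 0 of 10 were called, and the share of all genes called was 0% higher and 0% lower. Of the 10, 3 had an unadjusted p under 0.05 there, as did 2407 of all genes, and DESeq2 called 1 of the 10 and 870 genes. In con-in vitro against con, 1 was higher (Atp2b1) and 2 lower (Itpr3, Atp2a2), against 14.7% and 10.5%, and library totals gave 1872 genes higher and 3025 lower in place of 2452 and 1753.

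The median log2 change of the 10 genes was -0.12 in in vivo PSMPs against con (0.25 over all genes) and 0.64 in in vitro PSMPs against con-in vitro (0.71). It was -0.24 in SAHA against con-in vitro (0.66) and -0.94 in SAHA against con (0.59). It was 1.01 in PSMPs & OE-Hdac3 against in vitro PSMPs (0.10), 0.45 in PSMPs & OE-Hdac3 against in vivo PSMPs (0.23) and -0.36 in con-in vitro against con (0.00). These medians were the same with genes at 0 in a group set to their bounds. Scaling by library totals raised the median over all genes to 1.70 in in vitro PSMPs and to 1.37 in SAHA against con-in vitro, so directions there are relative to the bulk of genes.

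The difference between the effects of exposure in culture and in the animal was tested directly. Atp2a2 (log2 -2.31 ± 0.46, adjusted p = 0.015) and Atp2b1 (log2 -3.47 ± 0.68, adjusted p = 0.015) were more negative in culture, and the other 8 genes did not pass, against 4.87% of all genes higher and 6.4% lower in this test. With library totals the split of all genes was 1320 higher and 826 lower in place of 815 and 1071, and both calls held. The Atp2a2 call was lost without in vitro PSMPs replicate 1 (adjusted p = 0.059) or without either PSMPs & OE-Hdac3 library (adjusted p = 0.075 in both), and Atp2b1 was log2 -4.21 without in vitro PSMPs replicate 2. Fitted to only the compared groups, both calls were lost (adjusted p = 0.16 for Atp2a2 and 0.09 for Atp2b1).

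Across the 11 libraries, described by Pearson's r of log2(CPM + 1) with no test, Itpr1 ran with Atp2a2 (r = 0.85) and against Itpr2 (r = -0.82), Itpr2 ran with Camk2g (r = 0.81), and Itpr3 ran against Atp2b1 (r = -0.90). Libraries of a group share their treatment, and con-in vitro alone combines no Itpr3 with high Atp2b1. Among 7115 genes averaging at least 10 CPM, the 5 most like Itpr1 were Insm1 (r = 0.97), Lrp6 (0.97), Marchf6 (0.96), Tmtc1 (0.96) and Rad21 (0.96). Insm1 averaged 17.3 CPM in PSMPs & OE-Hdac3, 199 in in vivo PSMPs, 8.21 in in vitro PSMPs, 18.1 in SAHA, 87.9 in con-in vitro and 298 in con. Among the 5 most like Camk2g were Nkapd1 (r = 0.95), Naa25 (0.93), Hoxa7 (0.93) and Plxna4 (0.92).

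Further genes of the pathway were followed in 6 lists of 121 genes, of which 98 passed the filter. The count of these called higher and lower was 4 and 0 in in vivo PSMPs against con (4.59% and 0.287% of all genes) and 18 and 8 in in vitro PSMPs against con-in vitro (8.57% and 6.78%). It was 20 and 10 in SAHA against con-in vitro (11.7% and 8.14%) and 23 and 3 in SAHA against con (20.2% and 6.75%). It was 0 and 9 in PSMPs & OE-Hdac3 against in vitro PSMPs (1.85% and 2.98%) and 0 and 0 in PSMPs & OE-Hdac3 against in vivo PSMPs (0% and 0%). It was 19 and 12 in con-in vitro against con (14.7% and 10.5%), and 10 and 7 in the difference between the exposure effects (4.87% and 6.4%). As shares of 98 tested, the 4 in in vivo PSMPs and the 23 in SAHA against con are near those over all genes. So are the counts called lower in in vitro PSMPs and SAHA against con-in vitro, in con-in vitro against con and in the difference between the exposure effects. Whether any of these counts departs from the share over all genes was not tested. For each list and direction the genes of highest level are named.

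Of the entry channel genes, 13 of 18 were tested, and no comparison called more than 3 of them. Over all genes, 0% to 20.2% were called per direction, depending on the comparison. Orai3, an entry channel gene related to Orai1, stood at 4.21 and 5.65 CPM in in vitro PSMPs and at 7.30 and 8.76 in SAHA, against 0 in both con-in vitro libraries. By group means it was at least 11.6-fold higher in in vitro PSMPs and at least 18.8-fold higher in SAHA. Con-in vitro lay at least 50.6-fold below the mean of con (libraries at 7.37 and 35.8 CPM). Cacnb3, an auxiliary subunit of voltage-gated channels, was higher than in con in in vivo PSMPs (10.3 against 0.328 ± 0.12 CPM, adjusted p = 0.046), in SAHA (4.00 ± 0.135 CPM) and in con-in vitro (7.39 ± 0.374 CPM). Cacna1e, a pore-forming subunit, was at least 27.9-fold higher in in vivo PSMPs and 13.4-fold higher in SAHA than in con, which held 0 counts, and the channel gene Trpc6, also at 0 in con, was called higher in con-in vitro on 25 counts in replicate 1, while replicate 2 held 0.

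Genes that make or break down IP3 (15 of 22 tested) gave at most 2 calls in a comparison, against the same 0% to 20.2% of all genes per direction. The phospholipase gene Plcb3 was at least 7.49-fold higher in in vitro PSMPs and at least 4.39-fold higher in SAHA than in con-in vitro, which held 0 counts and lay at least 20.2-fold below con. Plch1 was at least 74.3-fold higher in in vivo PSMPs and 27.5-fold higher in SAHA than in con, which held 0 counts. Plcb1 was higher in SAHA than in con (33.3 ± 14.1 against 5.65 ± 2.94 CPM), and the lipid kinase gene Pi4ka was higher in con-in vitro than in con (22.2 ± 7.96 against 5.70 ± 0.0453 CPM).

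Genes of the endoplasmic reticulum store (15 of 19 tested) moved in both directions. Of the 15, 6 rose and 2 fell in in vitro PSMPs (8.57% and 6.78% of all genes) and 6 rose and 3 fell in SAHA (11.7% and 8.14%) against con-in vitro, with medians of log2 1.51 and 1.59 against 0.71 and 0.66 over all genes. Bcl2l10, a Bcl2 family gene abundant in oocytes, stood at 6680 ± 1757 CPM in in vitro PSMPs and 8414 ± 867 in SAHA, against 1159 ± 292.5 in con-in vitro. It was lower in PSMPs & OE-Hdac3 than in in vitro PSMPs (2198 ± 211 CPM, log2 -1.60 ± 0.31), and con-in vitro lay below con (10440 ± 816 CPM, log2 -3.17 ± 0.33). Hspa5, the main chaperone of the endoplasmic reticulum, was at 404 ± 132 CPM in SAHA, against 84.1 ± 8.98 in con-in vitro and 34.0 ± 1.70 in con, and was higher in SAHA than in either (log2 2.27 ± 0.35 and 3.57 ± 0.37). It was also higher in in vivo PSMPs than in con (log2 1.78 ± 0.40) and lower in PSMPs & OE-Hdac3 than in in vitro PSMPs (log2 -1.81 ± 0.35). Tmbim6, a membrane protein gene linked to calcium leak, was higher in in vitro PSMPs against con-in vitro (log2 1.56 ± 0.33) and in SAHA than in con (log2 1.22 ± 0.33). Canx, which encodes the calcium-binding chaperone calnexin, held 158 and 194 CPM in in vitro PSMPs, next to 240 and 166 in SAHA, against 4773 and 3135 in con-in vitro, while con held 458 and 239. Pdia4, a disulfide isomerase gene, was lower as well (log2 -3.06 ± 0.42 and -3.41 ± 0.42), and both were higher in con-in vitro than in con (log2 3.51 ± 0.43 and 3.72 ± 0.43). The receptor regulator gene Ahcyl1 (log2 -2.63 ± 0.57) and the receptor-related gene Itprid2 (log2 -2.29 ± 0.62) were lower in SAHA than in con, and the channel gene Tmco1 fell in con-in vitro against con (log2 -2.23 ± 0.44).

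Genes of calcium export and mitochondrial calcium (15 of 19 tested) gave 2 calls higher and 2 lower in in vitro PSMPs and 2 higher and 3 lower in SAHA, each against con-in vitro, where 8.57% and 6.78% and then 11.7% and 8.14% of all genes were called. Mcu, the pore of the mitochondrial uniporter, held 264 and 408 CPM in in vitro PSMPs, next to 449 and 591 in SAHA, against 6515 and 11930 in con-in vitro, while con held 438.5 and 324. Atp2c1, which encodes a Golgi calcium pump, was at 208 ± 4.81 CPM in in vitro PSMPs and 208 ± 36.5 in SAHA, against 3103 ± 729 in con-in vitro. Both genes were higher in con-in vitro than in con (log2 4.60 ± 0.50 and 3.63 ± 0.37). Vdac2, an outer membrane channel gene, was higher in in vitro PSMPs (log2 2.25 ± 0.38) and SAHA (log2 2.71 ± 0.39) than in con-in vitro and higher in SAHA than in con (log2 2.23 ± 0.38). Mcub, the uniporter's inhibitory subunit, was higher than in con-in vitro in in vitro PSMPs (log2 1.42 ± 0.33) and SAHA (log2 1.09 ± 0.32) but lower than in con in SAHA (log2 -1.07 ± 0.32) and con-in vitro (log2 -2.15 ± 0.33). Vdac1, another outer membrane channel gene, fell in con-in vitro against con (log2 -1.79 ± 0.52).

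Calmodulin, kinase and phosphatase genes (18 of 21 tested) gave 2 calls higher and 3 lower in each of these comparisons with the same shares over all genes, and 6 higher and 0 lower in SAHA against con (20.2% and 6.75% of all genes). The calmodulin gene Calm3 was lower than in con-in vitro in in vitro PSMPs and SAHA (3.80 ± 0.238 and 3.46 ± 0.173 against 137 ± 19.2 CPM), and Calm2 was higher than in con in SAHA (log2 2.18 ± 0.48) and con-in vitro (log2 1.5 ± 0.47). These genes encode the same protein, and how reads that fit several copies were counted is not given in the sources used here. Rgs2, which dampens receptor signalling to phospholipase, was higher in in vitro PSMPs (log2 1.71 ± 0.42) and SAHA (log2 1.97 ± 0.43) than in con-in vitro and fell in con-in vitro against con (log2 -1.52 ± 0.42). Marcks, a substrate of protein kinase C, was at 2.83 ± 2.17 CPM in in vitro PSMPs and 3.54 ± 1.31 in SAHA, against 340.5 ± 76.2 in con-in vitro and 2.24 ± 3.17 in con. Ppp3r1, the regulatory subunit of calcineurin, was lower in PSMPs & OE-Hdac3 than in in vitro PSMPs (53.0 ± 1.45 against 233 ± 86.2 CPM).

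Of the 22 genes downstream of calcium, all tested, 6 rose and 1 fell in in vitro PSMPs (8.57% and 6.78% of all genes) and 8 rose and 1 fell in SAHA (11.7% and 8.14%) against con-in vitro, while 5 fell in PSMPs & OE-Hdac3 against in vitro PSMPs (2.98%). Ccnb1, the cyclin that is destroyed as the egg leaves metaphase, was at 834 ± 154 CPM in PSMPs & OE-Hdac3, against 4306 ± 1178 in in vitro PSMPs (log2 -2.37 ± 0.36), and at 7606 ± 247.5 in SAHA, against 495 ± 134 in con-in vitro and 3162 ± 905 in con. Wee2, an egg kinase that acts on Cdk1, was also lower in PSMPs & OE-Hdac3 than in in vitro PSMPs (log2 -1.59 ± 0.30) and higher in con-in vitro than in con (log2 1.29 ± 0.30). Mos, the kinase gene of metaphase arrest, rose in in vitro PSMPs against con-in vitro (log2 2.64 ± 0.35) and fell in con-in vitro against con (log2 -3.80 ± 0.36). Zp2, the coat protein gene whose product is cleaved after fertilisation, was at 5528 ± 192 CPM in SAHA, against 654 ± 95.0 in con-in vitro and 360 ± 342 in con. The zinc importer gene Slc39a6 was lower in in vitro PSMPs (log2 -1.41 ± 0.41) and SAHA (log2 -1.82 ± 0.42) than in con-in vitro and higher in con-in vitro than in con (log2 1.60 ± 0.42).

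In the test of the difference between the exposure effects, Bcl2l10 (log2 3.36 ± 0.52), Erp44, whose product binds the IP3 receptor in the store (log2 2.68 ± 0.71), Ccnb1 (log2 4.21 ± 0.60) and Mos (log2 3.94 ± 0.57) were more positive in culture, as were Orai3 (adjusted p = 0.038) and Plcb3 (adjusted p = 0.04), which were at 0 in con-in vitro. Canx (log2 -3.84 ± 0.60), Pdia4 (log2 -4.27 ± 0.60), Mcu (log2 -4.26 ± 0.67), Atp2c1 (log2 -2.87 ± 0.51), Marcks (log2 -9.52 ± 2.42), Cacnb3 (log2 -6.32 ± 1.42) and Slc39a6 (log2 -2.51 ± 0.63) were more negative. Every gene named from these lists had an adjusted p at or below 0.0497 in the comparison given for it.

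Of the 91 calls named from the lists, 29 held under every alternative run and 56 were lost when at least 1 library was left out. Canx, Pdia4, Bcl2l10, Mcu, Atp2c1 and Ccnb1 held throughout in in vitro PSMPs and SAHA against con-in vitro and in con-in vitro against con. So did Mos in in vitro PSMPs against con-in vitro and in con-in vitro against con, Vdac2 in both comparisons with con-in vitro, and Hspa5 in both SAHA comparisons. All 4 calls in in vivo PSMPs were lost without any single library of PSMPs & OE-Hdac3, in vitro PSMPs or SAHA. All 5 calls named in PSMPs & OE-Hdac3 against in vitro PSMPs were lost without either PSMPs & OE-Hdac3 library or without in vitro PSMPs replicate 2. Plcb3 and Marcks, each near or at 0 in a group, were lost in both comparisons with con-in vitro without any single library other than those of con and in vivo PSMPs. With library totals, Slc39a6 was not called in in vitro PSMPs (log2 -0.43, adjusted p = 0.48), SAHA (-1.11, adjusted p = 0.094) or con-in vitro (0.70, adjusted p = 0.27). Likewise Calm2 (log2 0.59, adjusted p = 0.46), Wee2 (0.43, adjusted p = 0.23) and Pi4ka (1.11, adjusted p = 0.19) were not called in con-in vitro against con, nor Plcb1 (2.37, adjusted p = 0.06) and Tmbim6 (1.05, adjusted p = 0.061) in SAHA against con, nor Hspa5 (-1.30, adjusted p = 0.055) in PSMPs & OE-Hdac3 against in vitro PSMPs.

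**Figure D4:**
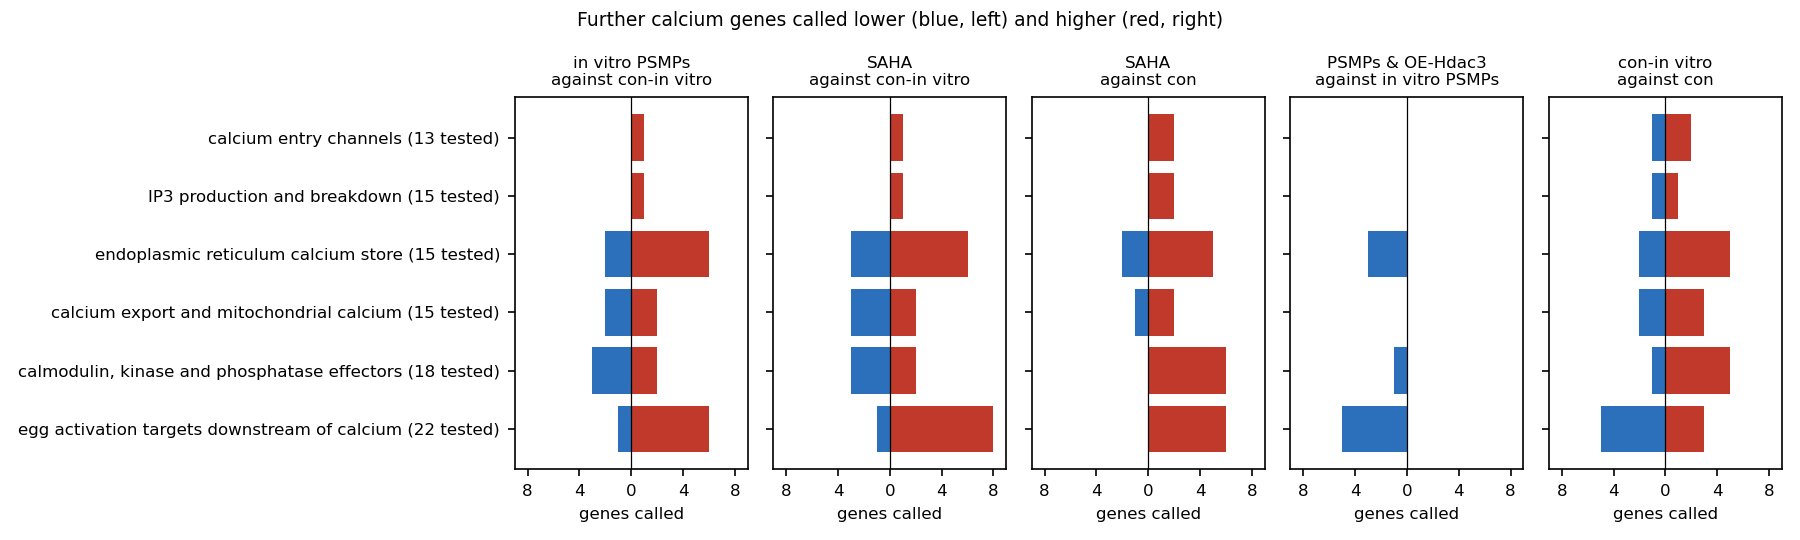
Number of genes called lower (blue, to the left) and higher (red, to the right) in each of the 6 lists of further calcium genes, for 5 comparisons, with the number tested beside each list. PSMPs & OE-Hdac3 against in vitro PSMPs has 9 genes to the left and 0 to the right (2.98% and 1.85% of all genes). The store and downstream lists hold 6 genes each of the 18 to the right in in vitro PSMPs against con-in vitro (8.57% of all genes).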

How the data were processed

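RNA sequencing counts per gene were deposited for mouse oocytes, 5 per library, in 12 columns of 6 groups. Per the labels' protocols, cDNA was amplified with a full-length single-cell kit and libraries were made with a transposase kit. Per the submitters' processing notes, which give no roles, the build was mm10 and the tools were HISAT2, Bowtie2 2.2.5, featureCounts, fastp 0.12.4, deepTools 3.5.1, Picard, SAMtools and DESeq2. The deposited counts are whole numbers and were used as they stand. H4K16ac CUT&Tag libraries of the series were not analysed here.

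Between the in vivo PSMPs columns the chi-square per degree of freedom, over genes with at least 20 counts, was 0.444, below sampling noise, against 16.5 to 384 in other groups, so these columns were merged as their rounded mean. Analysis used R 4.3.3, edgeR 4.0.16, limma 3.58.1 and DESeq2 1.42.0. edgeR's filter (minimum count 10, on the 12 columns) left 16736 genes. After TMM scaling (factors from 0.542 to 1.57), 1 coefficient per group was fitted to 11 libraries with robust quasi-likelihood dispersion (5 residual degrees of freedom, coefficient of variation 71.9%). Contrasts were tested with edgeR's F test, adjusted by Benjamini-Hochberg over all genes, with 0.05 as threshold. Each standard error is the fold change divided by the root of F. A fold against a group at 0 set the mean CPM of the other group against 3 counts over that group. It bounds the fold of the group mean and not that of each library. Floors cover counting error only. CPM per kilobase uses the deposited gene length, which for the 10 genes equals the bases covered by all annotated exons.

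The 10 genes, the 6 further lists (121 genes, 120 in the table) and the marker lists were chosen with earlier results of these data known. All 10 genes are named throughout, and from each further list the 2 called genes of highest mean per direction and comparison. The 5 genes most like Itpr1 and Camk2g were taken by Pearson's r over 11 libraries of log2(CPM + 1), leaving out unnamed gene models. A few genes that these rules select are not reported here, though counts over lists include them. Alternatives were library totals, scaling by DESeq2's size factors, its Wald test, no filter, a fit to only the compared groups, the merged columns kept apart, a replicate block and leaving out each column. The filter applied to the merged libraries was added after seeing the data. The procedure was tested on simulated data.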

Additional observations from a re-analysis of the deposited data

Results flagged for a closer look

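The effect of exposure differed between culture and the animal, by a test of the difference itself, for 2 of the 10 genes. For Atp2a2 the difference was log2 -2.31 ± 0.46 (in vitro minus in vivo, adjusted p = 0.015 by edgeR's quasi-likelihood test). It was made of log2 -2.62 ± 0.31 in culture (in vitro PSMPs and con-in vitro) and -0.31 ± 0.37 in the animal (in vivo PSMPs and con). For Atp2b1 the difference was log2 -3.47 ± 0.68 (adjusted p = 0.015), made of log2 -4.44 ± 0.50 and -0.97 ± 0.56. Fitted to only the compared groups, both calls were lost (adjusted p = 0.16 for Atp2a2 and 0.09 for Atp2b1). The Atp2a2 call was also lost without in vitro PSMPs replicate 1 or either PSMPs & OE-Hdac3 library (adjusted p from 0.059 to 0.075). Con-in vitro held Atp2b1 at 3592 ± 676 CPM, against 108 ± 0.729 in con (SD, n = 2 each), so the controls that enter this difference themselves differ. The part of the control libraries in these differences was not tested.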

How the results depend on the processing

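Depth limits the rare genes: in con-in vitro, 3 counts over the group stand for 0.427 CPM, so Itpr3 and Stim1 were not detectable there below that level. The fit had 5 residual degrees of freedom and shared its spread over groups, so leaving out a library changes calls in comparisons it does not belong to. The calls for Atp2a2 in in vitro PSMPs and SAHA and for Atp2b1 wherever con-in vitro was set against 1 other group held under each alternative run. A fit to only the compared groups or without a library has fewer samples. The cause of the changes below was not tested.

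Counts of genes called that moved by over 1.5 times are these. For in vivo PSMPs against con the count was 817, and it was 2728 with DESeq2's Wald test, 1377 with no filter, 4180 with the merged columns kept apart, 150 with the filter on merged libraries (chosen after seeing the data) and 0 with only the compared groups (433 had an unadjusted p under 0.05). In vitro PSMPs, set against con-in vitro, had 2570, and had 4231 with library totals, 4633 with DESeq2 and 3917 with the columns apart. For SAHA against con-in vitro it was 3313, and 5354 with DESeq2. For SAHA against con it was 4511, and 1450 with only the compared groups. For PSMPs & OE-Hdac3 against in vitro PSMPs it was 808, and 2592 with DESeq2, 5491 with only the compared groups and 1489 with the columns apart. For PSMPs & OE-Hdac3 against in vivo PSMPs it was 0 (2407 with an unadjusted p under 0.05), and 870 with DESeq2, 118 with no filter, 7215 with only the compared groups and 1355 with the columns apart. For con-in vitro against con it was 4205, and 836 with only the compared groups. For the difference between the exposure effects it was 1886, and 4129 with DESeq2, 245 with only the compared groups and 4013 with the columns apart.

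Counts of the 10 genes called moved as follows. The counts over all genes under the same settings are given above where they moved by over 1.5 times. Where none is given above, the count over all genes stayed within 1.5 times of the main one. Whether any count of the 10 departs from the share over all genes was not tested. DESeq2 called 5 in SAHA against con-in vitro, 2 in PSMPs & OE-Hdac3 against in vitro PSMPs and 1 in PSMPs & OE-Hdac3 against in vivo PSMPs. No filter left 2 in in vitro PSMPs against con-in vitro and gave 2 in PSMPs & OE-Hdac3 against in vitro PSMPs. Library totals gave 5 in con-in vitro against con. Only the compared groups gave 5 in SAHA against con-in vitro, 1 in SAHA against con, 3 and 8 in PSMPs & OE-Hdac3 against in vitro PSMPs and in vivo PSMPs, 1 in con-in vitro against con and 0 in the difference between the exposure effects. The columns apart gave 2 and 3 in PSMPs & OE-Hdac3 against in vitro PSMPs and in vivo PSMPs.

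Signs turned with library totals for Atp2a2 in in vivo PSMPs against con (log2 0.0197), Camk2g in PSMPs & OE-Hdac3 against in vitro PSMPs (0.28), Itpr3 in PSMPs & OE-Hdac3 against in vivo PSMPs (0.16), Camk2g (-0.21) and Orai1 (-0.65) in con-in vitro against con, and Camk2g (0.31) and Orai1 (0.28) in the difference between the exposure effects. With only the compared groups Camk2g turned to log2 -0.025 in PSMPs & OE-Hdac3 against in vivo PSMPs and to 0.0026 in the difference. None of these values was called.

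Leaving out each library in turn gave 0 to 4192 genes and 0 to 2 of the 10 for in vivo PSMPs against con, 1040 to 5393 and 2 to 6 with in vitro PSMPs over con-in vitro, and 1071 to 6375 and 2 to 7 for SAHA against con-in vitro. It gave 204 to 6638 and 1 to 6 for SAHA against con, 0 to 2331 and 0 to 3 for PSMPs & OE-Hdac3 against in vitro PSMPs, 0 to 513 and 0 to 0 for PSMPs & OE-Hdac3 against in vivo PSMPs, 2521 to 6572 and 1 to 4 for con-in vitro against con, and 590 to 5000 and 1 to 3 for the difference. For in vivo PSMPs against con the count was at most 1 without any single library of PSMPs & OE-Hdac3, in vitro PSMPs or SAHA.

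Signs turned without 1 library for these genes, given as log2 ranges over the libraries left out. The ranges were Itpr1 -0.74 to 0.13, Itpr2 -0.049 to 2.82, Trpm7 -0.67 to 1.63, Cacna1h -1.35 to 1.69 and Stim1 -2.09 to 5.51 in in vivo PSMPs against con. The range was Orai1 -1.21 to 2.04 in in vitro PSMPs over con-in vitro. The ranges were Trpm7 -0.095 to 2.02 and Stim1 -2.38 to 5.03 in SAHA against con. The ranges were Atp2b1 -0.46 to 0.78 and Camk2g -0.62 to 0.21 in PSMPs & OE-Hdac3 against in vitro PSMPs. The ranges were Itpr3 -0.35 to 0.0053 and Camk2g -0.0097 to 0.12 in PSMPs & OE-Hdac3 against in vivo PSMPs. The ranges were Itpr1 -0.99 to 0.051, Trpm7 -1.01 to 1.13, Cacna1h -2.41 to 0.45 and Orai1 -1.07 to 1.67 in con-in vitro against con. The ranges were Itpr2 -1.95 to 0.87, Trpm7 -0.56 to 1.69, Camk2g -0.80 to 0.0298 and Orai1 -2.47 to 0.78 in the difference between the exposure effects. Of these, Itpr2 and Stim1 in in vivo PSMPs against con and Stim1 in SAHA against con passed without con replicate 2, and Stim1 in SAHA against con also passed, with the opposite sign, without con replicate 1. Trpc6 in con-in vitro against con was log2 0.0 without con-in vitro replicate 1 and up to 10.18 without replicate 2.

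The replicate numbers of the labels did not pair the libraries: correlations of same-numbered deviations ran from -0.288 to 0.057 over 10 pairs of groups. With the replicate number as a block, fitted without in vivo PSMPs, 2 of the 10 genes were called in in vitro PSMPs over con-in vitro (2083 genes in all), 2 in SAHA against con-in vitro (2468), 3 in SAHA against con (3122), 1 in PSMPs & OE-Hdac3 against in vitro PSMPs (594) and 3 in con-in vitro against con (3205). The block ended the calls of Itpr1 (adjusted p = 0.076) and Itpr3 (0.065) in in vitro PSMPs, of Itpr3 in SAHA over con-in vitro (0.057) and of Cacna1h in SAHA over con (0.056). Atp2b1 in PSMPs & OE-Hdac3 against in vitro PSMPs turned to log2 -0.0745 under the block. No block could be fitted for in vivo PSMPs, which counts as 1 library.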
